A study of Mus musculus with 12 samples.

Results

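The AP-1 family comprises the Fos genes (Fos, Fosb, Fosl1 and Fosl2) and the Jun genes (Jun, Junb and Jund), 7 genes in all. They were found by gene symbol among the 24421 genes counted in polyribosomal RNA of the mouse hippocampus, and 6 of the 7 had enough counts to be tested. Polyribosomal RNA here is the RNA that pelleted through a 1 M sucrose cushion in a 4 h spin, a fraction that takes in ribosome-bound transcripts together with other fast-sedimenting material. The 12 libraries form 2 groups by their labels, 6 fear case and 6 control, all from 6-week-old C57/Bl6 mice with no genetic change named in the labels. The protocol is worded alike for all 12: 8 min of exposure to an unfamiliar context, then 7 min in the home cage, with tissue taken at 15 min. Neither the experience that set the control mice apart nor whether a shock was given is stated in the labels. Whether each library came from a separate mouse is also not stated, so the p-values measure only the spread between these libraries.

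AP-1 is a pair of basic leucine zipper proteins that binds DNA and activates or represses transcription. Fos proteins bind DNA only as a partner of another protein, usually a Jun, while Jun proteins can also pair with each other. In neurons, calcium entry and MAP kinase signalling switch on Fos within minutes through the transcription factors SRF and CREB, and Fos RNA or protein is widely used in the hippocampus to mark recently active cells.

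Gene counts ranged from 19.3 M to 44.2 M in fear case libraries and from 18.6 M to 21.9 M in control libraries. Fear case 6 was the deepest, at 44.2 M, and stood apart from the rest. Its gene counts differed from the other 5 fear case libraries by a chi-square of 90.9 to 138 per degree of freedom, a measure that also grows with depth, against 8.18 to 34.7 among those 5 and 14.0 to 37.5 among controls. The ribosomal RNA precursor Rn45s took 12.5% of its gene counts, against 4.55% to 7.98% in the other 11 libraries. Markers of hippocampal excitatory neurons were present at similar summed levels, 4244 to 4485 CPM (counts scaled to library size) in fear case and 4065 to 4665 CPM in control. Markers of choroid plexus epithelium, which makes cerebrospinal fluid, were uneven. Their 12 genes summed to 99.8 to 2162 CPM in fear case, where fear case 6 was the highest, against 1040 to 2878 CPM in control, and Ttr, their most abundant, stood at 7.41 to 1319 CPM in fear case and 641 to 1978 CPM in control. All 12 of these markers had a negative log2 fold change, and none passed over all genes with edgeR, although all 12 had an unadjusted p under 0.05, as did 7.14% of all genes tested. For Ttr the log2 fold change was -1.78 (adjusted p = 0.613, edgeR), and without fear case 6 it was -3.14 and was called (adjusted p = 0.0134). In bulk tissue, fewer cells of a type and less RNA per cell cannot be told apart.

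Of the 6 tested members, 3 rose in fear case (Fos, Fosb and Junb), 0 fell and 3 did not pass (Fosl2, Jun and Jund). Calls were made by edgeR's quasi-likelihood test at an adjusted p under 0.05 over the 14564 genes tested, of which 0.0481% were called higher in fear case, 0.0549% lower and 0.103% in either direction. The members that rose were 2 Fos genes and 1 Jun gene. The median log2 fold change of the 6 tested members was 0.42, beside -0.0046 over all genes tested.

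Fos, the founding subunit of the family, stood at 12.1, 20.6 and 33.7 CPM (lowest, median and highest) in the 6 fear case libraries, against 2.29, 4.08 and 6.83 CPM in the 6 control libraries. The groups did not overlap, and 0.268% of tested genes had every fear case value over every control value (0.597% were separated in either direction). Fos rose 4.76-fold, with a 95% interval of 3.43 to 6.59, and ranked second of all genes by p after Npas4, which encodes a neuronal activity-dependent transcription factor (adjusted p = 1.1e-05, edgeR). Fos rested on 268 to 851 counts per fear case library and 45 to 152 per control library. Counting error alone averaged 4.61% of its level in fear case and 11.1% in control, while the libraries varied by 34.5% in fear case and 36.5% in control (coefficient of variation, SD over mean).

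Fosb, whose transcript is spliced into a full-length and a truncated, long-lived protein that gene counts do not separate, stood at 8.16, 10.5 and 15.9 CPM in fear case, against 4.22, 5.69 and 6.85 CPM in control. The groups did not overlap, and the lowest fear case library, fear case 3, lay close above the highest control, control 2. Fosb rose 2.05-fold (95% interval 1.60 to 2.63, adjusted p = 0.00968, edgeR).

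Junb, a Jun gene that is itself induced by activity, stood at 55.3, 59.3 and 77.8 CPM in fear case, against 29.6, 32.7 and 44.4 CPM in control. The groups did not overlap, and 5 of the 6 fear case libraries lay within 55.3 to 60.1 CPM. Junb rose 1.72-fold (95% interval 1.48 to 2.00, adjusted p = 0.000478, edgeR). Of the exon bases of Junb, 173 (7.52%) overlap exons of Prdx2, a peroxiredoxin gene on the opposite strand, and no source used here says whether counting was by strand. For Prdx2 itself the log2 fold change was -0.12, with an SE of 0.09 and an adjusted p of 0.822 (edgeR).

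**Figure D1:**
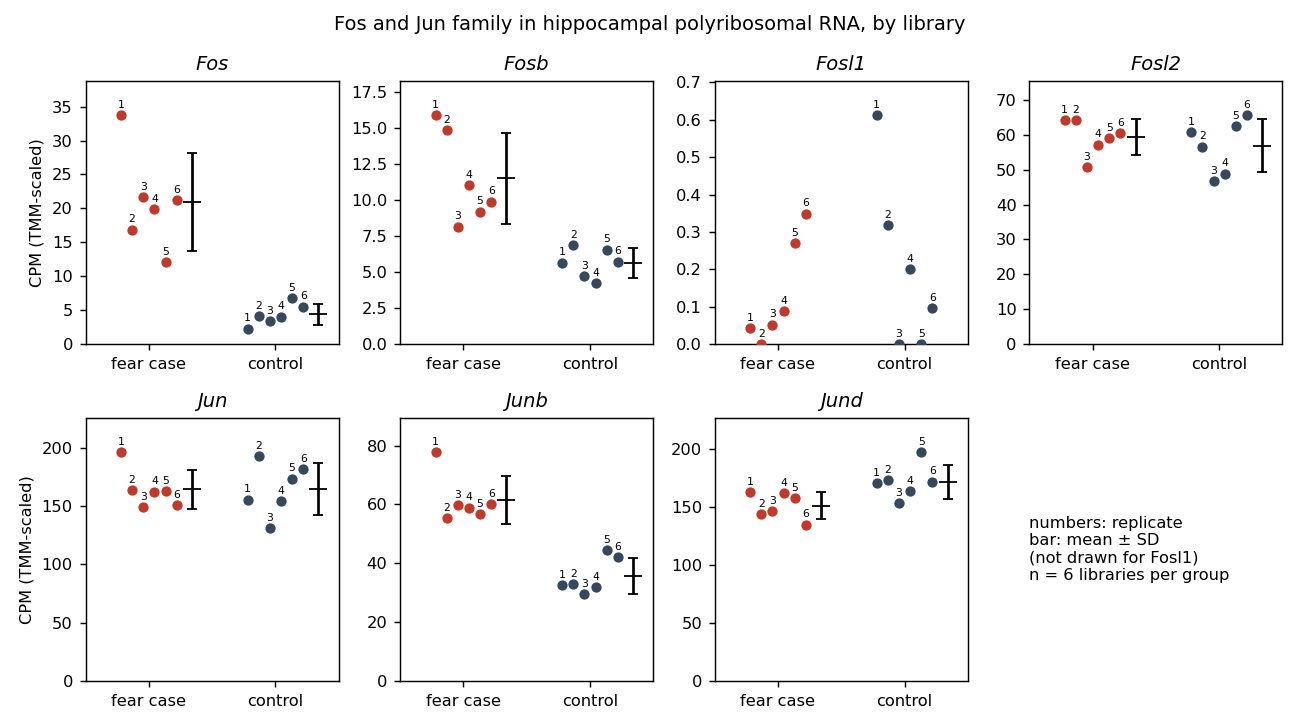
Level of each of the 7 family members in every library, in CPM, scaled by TMM (vertical axes start at 0 and differ between panels); points are libraries numbered by replicate, and bars are the mean ± SD of 6 libraries, not drawn for Fosl1. For Fos, Fosb and Junb every fear case library lies above every control, while the groups overlap for the other 4 members.

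The choroid plexus markers given above were uneven between libraries, and none passed. Their sum overlapped between the groups through fear case 6 alone. It was 99.8 to 565 CPM in fear case 1 to 5, against 1040 to 2878 CPM in control. For Ttr, 5 of the 6 fear case libraries lay below all controls. A covariate made from these markers therefore ran largely along the group. With the markers' mean log2 level as a covariate, Fos stood at 2.38 on the log2 fold scale (SE 0.28, adjusted p = 9.8e-05) and Junb at 0.87 (SE 0.14, adjusted p = 0.00873). Fosb had 0.93 (SE 0.23, adjusted p = 0.415) and no longer passed. Without fear case 6, the fear case library with choroid plexus markers in the control range, the 3 members had log2 fold changes of 2.24 (Fos), 1.08 (Fosb) and 0.79 (Junb), all called. In that fit the marker sum did not overlap between the groups, so marker level and group cannot be told apart there.

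The 7 genes lie on 6 chromosomes of GRCm38 (GENCODE vM21): chr12:85473890-85477273 for Fos, chr7:19302696-19310051 for Fosb, chr19:5447547-5455946 for Fosl1, chr5:32135801-32157842 for Fosl2, chr4:95049034-95052222 for Jun, chr8:84974484-84978718 for Junb and chr8:70698949-70700616 for Jund.

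The sequences just upstream of the 3 genes that rose, and of Jun, which did not pass, are shown because Fos, Fosb and Junb moved in the same direction. They are the 250 bases before the RefSeq start (GRCm38.p6), 5′ to 3′ on the gene's strand: chr12:85473640-85473889 on the plus strand for Fos, and on the minus strand chr7:19310046-19310295 for Fosb, chr8:84978749-84978998 for Junb and chr4:95052223-95052472 for Jun. Capitals mark TGACG, the core of the element bound by CREB, in Fos, Fosb and Junb, the TATA box letters TATAAA in Fos, and in Jun an 8-base AP-1 site (TGANNTCA) and a MEF2 site.
Fos: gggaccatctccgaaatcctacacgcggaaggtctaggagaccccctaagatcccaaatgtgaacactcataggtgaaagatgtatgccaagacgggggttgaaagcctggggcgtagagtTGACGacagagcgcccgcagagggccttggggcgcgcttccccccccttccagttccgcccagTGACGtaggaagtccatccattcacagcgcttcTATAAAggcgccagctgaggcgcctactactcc
Fosb: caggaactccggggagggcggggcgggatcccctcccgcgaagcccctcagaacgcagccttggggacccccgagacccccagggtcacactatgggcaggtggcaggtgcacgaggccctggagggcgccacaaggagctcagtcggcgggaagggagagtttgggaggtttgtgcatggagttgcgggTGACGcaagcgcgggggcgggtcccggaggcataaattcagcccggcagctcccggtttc
Junb: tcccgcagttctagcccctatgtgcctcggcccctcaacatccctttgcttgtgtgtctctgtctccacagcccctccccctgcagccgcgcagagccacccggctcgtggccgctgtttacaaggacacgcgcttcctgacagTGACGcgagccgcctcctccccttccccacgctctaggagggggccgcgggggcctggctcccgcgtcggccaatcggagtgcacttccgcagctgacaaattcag
Jun: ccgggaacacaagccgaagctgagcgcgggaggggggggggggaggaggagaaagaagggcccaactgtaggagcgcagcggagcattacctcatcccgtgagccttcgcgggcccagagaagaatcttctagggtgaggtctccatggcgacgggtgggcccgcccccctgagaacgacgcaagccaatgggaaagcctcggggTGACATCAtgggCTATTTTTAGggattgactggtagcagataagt

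RefSeq promoters were matched for 6 of the 7 members, all but Fosl1, with 1 start each, and motifs were searched on both strands. The RefSeq start lies 1210 bases upstream of the GENCODE gene start for Jund and 671 bases downstream of it for Fosl2, so those 2 windows do not adjoin the GENCODE starts, while for Fos, Fosb, Jun and Junb the 2 starts lie within 30 bases. TGACG was found in Fos (at positions -129 and -66 from the RefSeq start), Fosb (-60) and Junb (-106), against 17.8% of 32851 mouse promoters of the same length. TGANNTCA, of which the full CRE TGACGTCA is one form that also holds TGACG, was found in Jun (-45) and Jund (-61), against 11.9% of promoters. The MEF2 site was found in Jun (-33), against 2.92% of promoters, and TATAAA in Fos (-33), against 12.4%. The full CRE (1.55% of promoters), the AP-1 site TGANTCA (6.75%) and the SRF CArG box (1.47%) were in none of the 6 windows. These matches describe letters in a 250-base window. Bases further upstream were not searched, so a motif missing here, the SRF CArG box included, may lie outside the window.

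The remaining Jun genes had the highest CPM of the family. Jun, whose protein is a target of the JNK kinases, stood at 149, 163 and 196 CPM in fear case, against 131, 165 and 193 CPM in control. The groups overlapped, and its fold was 0.996 (95% interval 0.880 to 1.13, adjusted p = 0.995, edgeR). Jund, a Jun gene known for steady expression in resting cells, stood at 135, 152 and 163 CPM in fear case, against 153, 172 and 198 CPM in control. For Jund, 3 of the 6 fear case libraries lay below all controls. Its fold was 0.881 (95% interval 0.797 to 0.975), its unadjusted p was 0.0162 and its adjusted p 0.559 (edgeR), so it did not pass. Exons of Jun (7.28% of its bases) and of Jund (52.6%) overlap the antisense genes Junos and Gm11175 in GENCODE. Neither symbol is among the genes counted. With the strand setting unknown, antisense reads may not be separable from those of Jun and Jund there.

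Among the Fos-related antigens, Fosl2 (Fra-2) stood at 50.7, 59.8 and 64.2 CPM in fear case, against 46.8, 58.6 and 65.5 CPM in control. The groups overlapped, with a fold of 1.04 (95% interval 0.921 to 1.18, adjusted p = 0.915, edgeR). Fosl1 (Fra-1) was near the limit of detection. It had 1, 0, 1, 2, 6 and 14 counts in fear case 1 to 6, against 12, 6, 0, 4, 0 and 2 counts in control 1 to 6, a total of 24 counts in each group. A count of 0 allows up to 0.123 CPM in fear case 2, 0.140 CPM in control 3 and 0.135 CPM in control 5, by counting error only. Fosl1 was not tested, and 57.2% of its exon bases overlap exons of Ccdc85b on the opposite strand, which averaged 96.8 ± 8.06 CPM in fear case and 106 ± 4.79 CPM in control (SD, n = 6 each), so reads of the 2 genes may not be separable there.

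**Figure D2:**
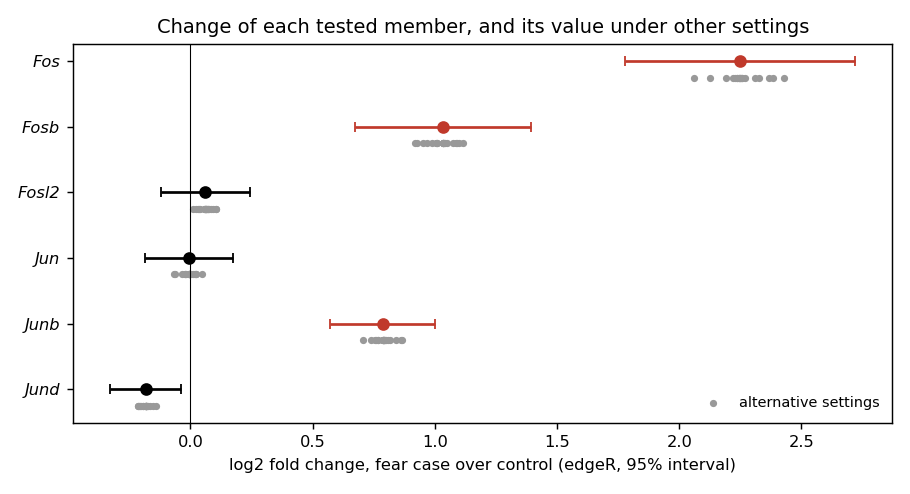
Log2 fold change of fear case over control for the 6 tested members, with 95% intervals from edgeR (points with bars, red where the adjusted p is under 0.05), and the value under each of 20 alternative settings (grey points). Fos lies highest at 2.25, Fosb at 1.03 and Junb at 0.79, the intervals of Fosl2 and Jun include 0, and that of Jund lies below 0 although its adjusted p is 0.559.

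Whether members differed in how far they moved was tested on the log2 ratio of 2 members' counts within a library, which does not depend on how libraries are scaled. All 15 pairs of tested members were compared, and 4 further pairs set Fos against Npas4, Arc, Egr1 and Nr4a1, by exact two-sided permutation over 924 relabellings with adjustment over the 19 pairs. The smallest exact p these allow is 0.00216, and the smallest adjusted p reached was 0.00294. Of the 15 member pairs, 13 had an adjusted p under 0.05. The pairs share members, so they are not independent of each other. Those that set a member that rose against one that did not pass largely follow from the calls above.

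Fos moved further than every other tested member. The Fos over Jund log2 ratio was -2.92 ± 0.48 in fear case and -5.37 ± 0.48 in control (SD, n = 6 each), a difference of 2.44 and a 5.44-fold change of the ratio (adjusted p = 0.00294, exact permutation). Fos over Fosb was 0.84 ± 0.46 in fear case and -0.42 ± 0.52 in control, with Fos counts above Fosb counts in all 6 fear case libraries and in 1 of 6 controls. The difference was 1.26 (adjusted p = 0.00294, exact permutation). Fos over Junb differed by 1.47 with the same p. For these 3 ratios the groups did not overlap.

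Fosb and Junb each moved further than Fosl2, Jun and Jund, with differences in size from 0.73 (Junb against Fosl2) to 1.19 (Fosb against Jund) and an adjusted p of 0.00294 in all 6 pairs (exact permutation). Between Fosb and Junb themselves the difference was 0.21 (adjusted p = 0.266, exact permutation), and the ratios overlapped in 5 of 6 fear case libraries. Among the members that did not pass, Fosl2 over Jund was 0.25 higher in fear case (adjusted p = 0.0274, exact permutation) and Jun over Jund 0.18 higher (adjusted p = 0.0488). In each of these 2 ratios, 3 of 6 fear case values were higher than every control value. Dropping a single library, for 4 of the 12, ended the call for Fosl2 over Jund (adjusted p 0.0521 to 0.0576 without fear case 6 or control 3, 4 or 5). For Jun over Jund the same was true of 8 of the 12 (0.0540 to 0.0977 without fear case 1, 2, 5 or 6 or control 1, 3, 4 or 5), and medians in place of means ended it too (0.0565). Fosl2 over Jun differed by 0.07 (adjusted p = 0.400).

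**Figure D3:**
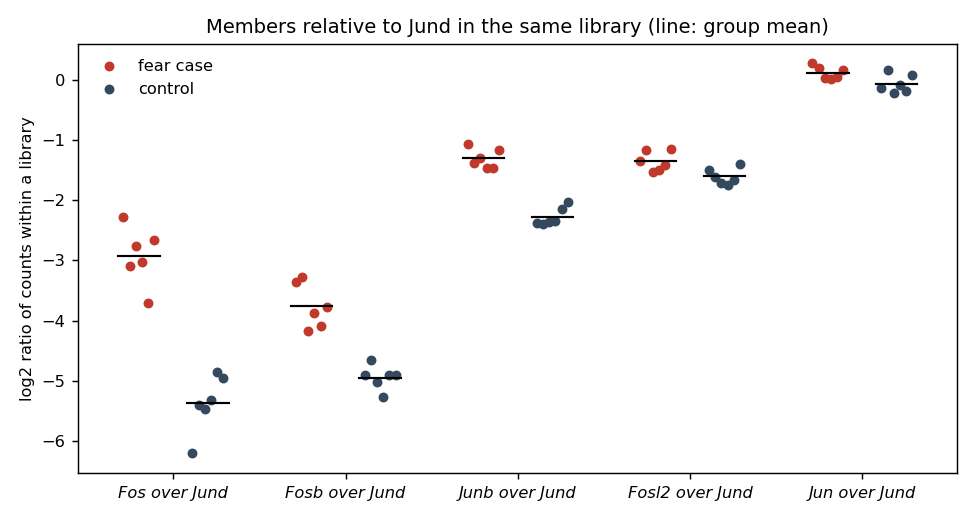
Log2 ratio of each other tested member to Jund within the same library, by group; points are libraries (n = 6 per group) and lines group means. The ratios of Fos, Fosb and Junb to Jund do not overlap between groups, and those of Fosl2 and Jun to Jund overlap.

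Against other genes of rapid activity response, the Fos over Npas4 ratio was -0.08 ± 0.33 in fear case and -0.27 ± 0.39 in control. The difference of 0.19 did not pass (adjusted p = 0.393, exact permutation). Fos moved further than Arc, a postsynaptic gene (difference 1.46), Egr1, a zinc-finger transcription factor gene (1.70), and Nr4a1, an orphan nuclear receptor gene (1.93), each with an adjusted p of 0.00294 (exact permutation) and no overlap between groups.

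Levels of different members were compared per kilobase of exon, with exon lengths from GENCODE vM21, which may differ from the annotation the authors counted on. In fear case the order by mean level was Jund (90.9 ± 6.77 CPM per kb), Jun (51.5 ± 5.34), Junb (26.7 ± 3.58), Fos (8.89 ± 3.06), Fosl2 (6.13 ± 0.524), Fosb (1.84 ± 0.505) and Fosl1 (0.0658 ± 0.0695). In control the order was Jund (103 ± 8.80 CPM per kb), Jun (51.7 ± 6.97), Junb (15.5 ± 2.65), Fosl2 (5.87 ± 0.783), Fos (1.86 ± 0.679), Fosb (0.901 ± 0.163) and Fosl1 (0.101 ± 0.115). Fos thus stood above Fosl2 in 5 of 6 fear case libraries and below it in all 6 controls. The ranges of neighbours in these orders overlapped only for Fos and Fosl2 in fear case and for Fos and Fosb in control. The place of Jund above Jun depends on the length used: over the RefSeq gene span of 2878 bases, in place of 1668 exon bases, Jund stood at 52.7 ± 3.92 CPM per kb in fear case and 59.7 ± 5.10 in control, above Jun in 3 of 6 fear case and 5 of 6 control libraries.

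The summed level of the family was 171 to 217 CPM per kb in fear case and 153 to 203 CPM per kb in control, so the groups overlapped in the total while the make-up differed. Fos made up 2.80% to 6.61% of the family sum in fear case and 0.561% to 1.43% in control. Junb made up 14.3 ± 0.973% in fear case and 8.61 ± 0.827% in control (SD, n = 6 each). Jund made up 48.9 ± 2.47% in fear case and 57.7 ± 2.11% in control. The 4 Fos genes together stood at 7.01% to 10.9% of the family sum in fear case, against 4.49% to 5.35% in control. These sums and shares use the GENCODE lengths, were not tested, and follow from the members' own changes. With the longer RefSeq span as the length of Jund, the sum and the share of Jund would be smaller and the other shares larger.

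**Figure D4:**
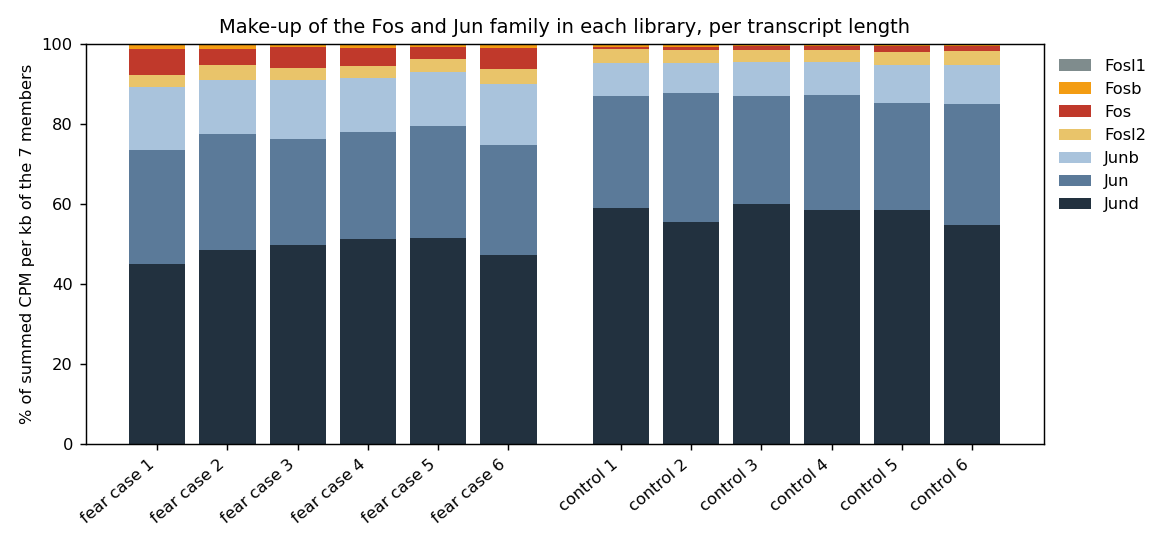
Share of each member in the summed CPM per kb of the 7 family members, in each library (stacked bars to 100%). Jun genes make up most of the sum in every library, and the Fos and Junb bands are wider in all 6 fear case libraries than in any control.

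Some libraries stood high or low for every tested member. Fear case 1 was the highest fear case library for all 6 tested members, from 0.11 above the group mean for Jund to 0.75 for Fos on the log2 CPM scale. It was also the highest library for Npas4 (28.9 CPM), Arc (197 CPM), Egr1 (290.4 CPM) and Nr4a1 (55.7 CPM). Among controls, control 5 and control 6 lay above the group mean for all 6 tested members, and control 3 and control 4 below it for all 6. Control 3 was the lowest control for 4 of the 6. The order was not shared throughout: fear case 2 ranked next to fear case 1 for Fosb and next to last for Fos, and control 1 was the lowest control for Fos but not for any other tested member. Fos also varied more between libraries of a group than genes of its abundance. Its biological coefficient of variation was 25.6% against a trend of 15.9% at its level (edgeR), while that of Jund was 9.06% against 9.98%. Without fear case 1, Fos, Fosb and Junb had log2 fold changes of 2.06, 0.92 and 0.71 and were still called (adjusted p = 1.2e-05, 0.0334 and 0.000895, edgeR).

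**Figure D5:**
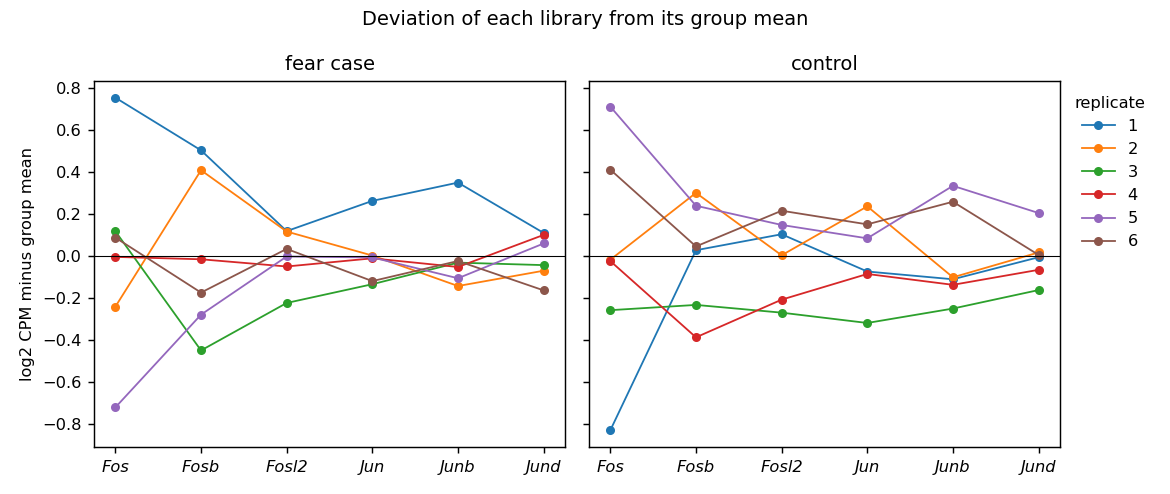
Deviation of each library's log2 CPM from its group mean for the 6 tested members (fear case left, control right, 6 libraries each). Fear case 1 lies highest for every member, and the lines spread widest at Fos.

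Likeness of profile was measured as the root mean square difference of log2 CPM over the 12 libraries after each gene was centred on its own mean, so a small value means a similar pattern and size of change. The closest genes to Fos were Npas4 (0.34), Fosb (0.77) and Egr2 (0.80), a zinc-finger transcription factor gene with a fitted log2 difference of 1.63 (SE 0.39, adjusted p = 0.141). Only Npas4 stood apart: the genes ranked 2 to 10 lay between 0.77 and 0.83, so Fosb and Egr2 were hardly closer than the rest of these. Those closest to Fosb were Arc (0.23), Junb (0.29) and Btg2 (0.30), an antiproliferative gene. Those closest to Junb were Arc (0.11), Egr1 (0.18) and Malat1 (0.24), a nuclear long noncoding RNA. Fosl2, Jun and Jund were not among the 10 closest genes of Fos, Fosb or Junb. As the measure includes the size of change, their absence follows largely from the fold changes given above.

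Genes that act around AP-1 were described from fixed lists, by the count that passed over all genes with edgeR, where 0.103% of genes were called in either direction. Of all genes tested, 7.14% had an unadjusted p under 0.05. Of 13 basic leucine zipper partners 10 were tested. Of these 10, which pair with Fos or Jun proteins, none passed with edgeR, DESeq2 or limma-voom, 2 had an unadjusted p under 0.05, and the median log2 fold change was -0.03. Atf2, a partner of Jun, was at 0.17 on that scale (SE 0.06, adjusted p = 0.520), and the small Maf gene Mafg at -0.22 (SE 0.10, adjusted p = 0.656). Of 16 tested transcription factors and coactivators of AP-1 promoters, Npas4 was the only gene that passed, and the median was 0.0052.

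Of 21 tested genes of MAP kinase and calcium signalling to AP-1, none passed with the 3 tools. Of these, 3 had an unadjusted p under 0.05, against 7.14% of all genes tested. The log2 fold changes lay between -0.16 and 0.16. Braf, a kinase that activates the ERK cascade, had 0.16 (SE 0.06, adjusted p = 0.559), and Map2k2, its substrate kinase, -0.16 (SE 0.07, adjusted p = 0.662). Of 10 tested genes of AP-1 mRNA and protein turnover, none passed with the 3 tools and 0 had an unadjusted p under 0.05. Itch, a ubiquitin ligase for Jun proteins, had 0.14 (SE 0.07, adjusted p = 0.709), and Elavl1, an RNA-binding protein of AU-rich messages, 0.09 (SE 0.06, adjusted p = 0.795).

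Of 22 genes described as AP-1 targets 18 were tested, and of these none passed with the 3 tools and 0 had an unadjusted p under 0.05, with a median of 0.05. The secretogranin gene Scg2 was at 0.20 (SE 0.10, adjusted p = 0.716), at 118 ± 18.6 CPM in fear case and 103 ± 15.9 CPM in control (SD, n = 6 each). Cd44, a hyaluronan receptor gene, had -0.31 (SE 0.17, adjusted p = 0.742). Of 13 other rapid immediate early transcription factor genes, Npas4 was the only one that passed, at 21.4 ± 4.62 CPM in fear case and 5.12 ± 1.34 CPM in control (SD, n = 6 each). A further 6 of these 13 had an unadjusted p under 0.05, against 7.14% of all genes tested, and the median was 0.20. DESeq2 called 2 more of them, Ier2 and Egr2, and limma-voom called no further one.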

How the data were processed

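Polyribosomal RNA of mouse hippocampus was sequenced as 40 bp read pairs. The authors deposited 1 file of raw counts per gene symbol for each of 12 libraries. Cutadapt, TopHat, Bowtie, HTSeq and the build mm10 appear in the submitters' processing notes; no source used here gives versions, the annotation or the strand setting. Lines of the counter that name no gene were left out. Reads outside genes were 25.5% to 33.3% and ambiguous ones 0.453% to 0.550%, as shares of gene counts and these 2 lines together. The line for alignments that were not unique was also left out and is not in these shares. It held 67.8 M to 115 M per library, against 18.6 M to 44.2 M gene counts. Exon lengths and overlaps came from GENCODE vM21, on GRCm38, the assembly that mm10 names, where 23384 of 24421 symbols were found.

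Counts were analysed with edgeR 4.0.16 in R 4.3.3: filterByExpr (minimum count 10, total 15), TMM scaling and the quasi-likelihood test of fear case against control without covariates, with Benjamini-Hochberg adjustment over 14564 genes. CPM use the TMM-scaled library sizes, log2 CPM a prior count of 2, and ratios a pseudocount of 0.5. Standard errors are the log2 fold change over the square root of F, and 95% intervals use the test's degrees of freedom. Alternatives were RLE scaling, total counts, DESeq2 1.42.0, limma-voom (limma 3.58.1), other filters, a replicate block, a choroid plexus covariate and leaving out each library. Counting intervals and floors (3 counts) cover counting error only. The fit and ratio test were checked on simulated counts. No libraries of a group agreed within sampling noise. The RefSeq span of Jund was tried as a length after the data were seen.

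The members and lists were chosen with earlier results of these data known. Genes named beyond the 7 members are those of each list that passed, or else the 2 with the lowest p; Arc, Egr1, Npas4 and Nr4a1; the 3 closest profiles to Fos, Fosb and Junb; exon-overlapping genes; and Ttr. Ier2 was named after its value was seen.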

Additional observations from a re-analysis of the deposited data

Results flagged for a closer look

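In 14 sets of 6 libraries (7 members in 2 groups), 2 held a library far from the other 5 by Dixon's test at the 95% level, where chance alone gives about 1 in 20. Both were fear case 1. Its Junb level was 77.8 CPM, with the next fear case library at 60.1 CPM. Its Jun level was 196 CPM, with the next at 164 CPM. Without fear case 1 the log2 fold change of Junb was 0.71 (adjusted p = 0.000895, edgeR) and that of Jun -0.07 (adjusted p = 0.892).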

How the results depend on the processing

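Over 20 alternative settings of the fit, Fos (log2 fold change 2.06 to 2.43) and Junb (0.71 to 0.87) stayed called in all, and Fosl2 (0.01 to 0.11) and Jund (-0.22 to -0.14) in none. Fosb (0.92 to 1.12) stayed called in 19 and lost its call with the choroid plexus covariate (0.93, adjusted p = 0.415). Leaving out each library in turn, Jun ranged from -0.065 to 0.047 and so changed sign, never called. Where 15 genes were called (7 higher, 8 lower), total gene counts gave 33 (7 higher, 26 lower), DESeq2 60, no filter on low counts 37, the covariate 5, and leaving out 1 library 9 to 128, the highest without fear case 6. Genes called in the fixed lists numbered 1 (Npas4), against 3 with DESeq2, 4 without the filter and 1 to 4 with a library left out. With medians in place of means the Fosl2 over Jun ratio difference was -0.0058, against 0.07, and Jun over Jund no longer passed. With the covariate the log2 fold change of Ttr, itself part of that score, was 0.18, against -1.78; it was -3.14 and called without fear case 6, and -3.53 with limma-voom and -3.60 with a replicate block, neither called. No cause of these changes was tested. The labels do not state that a shared replicate number pairs libraries, so the numbers were not taken to pair them. Same-numbered libraries also did not deviate together (r from -0.17 to 0.05). With a replicate block 18 genes were called, Fos, Fosb and Junb among them (log2 fold changes 2.23, 1.01 and 0.79). In the ratio test with that block 13 member pairs passed, and the smallest adjusted p that its 64 sign flips gave was 0.0371. The lists and covariate were set with earlier results known. Depth limits Fosl1 most.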
